A study of Homo sapiens with 2 samples.

Results

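The genes described here are MYC, its partner MAX and 34 genes of nucleolar ribosome biogenesis, 36 in all. They were named by function, with earlier results of these data known. Each is represented by its brightest probe set that carries a single gene symbol. Of the 36, 35 had such a probe set, all 35 passed the floor on low signal, and 10437 genes of the array passed it. GNL3 was not analysed here, because the probe annotation used lists no probe set under that symbol. The cells were HCT116, an epithelial line from a colorectal carcinoma that carries an activating beta-catenin mutation. The control culture (shNC) was infected with a lentivirus carrying a negative-control shRNA, and the other culture (shRAP1) with a lentivirus carrying sh-RAP1-4#, a single shRNA against RAP1. Both were infected at a multiplicity of infection of 20 and collected at 72 h, and each gave 1 array, so no difference below has a replicate check or a p-value. The series asked what RAP1 does in colorectal cancer cells. No uninfected culture was analysed here, and both groups carry a lentivirus.

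Ribosomes are built mainly in the nucleolus, where RNA polymerase I copies the ribosomal DNA into a long precursor RNA. Small nucleolar ribonucleoproteins (snoRNPs) modify that precursor, and large assemblies of processing factors cut it into the RNAs of the small and large subunits while ribosomal proteins are added. MYC, a transcription factor that binds DNA as a dimer with MAX, is a well-known activator of genes at every step of this pathway. In colorectal cancer cells MYC is a classical target of beta-catenin.

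The differences were small, and most of the ribosome biogenesis genes were slightly lower in shRAP1 while MYC itself was slightly higher. All differences are shRAP1 minus shNC of log2 signal. Of the 35 members, 23 were lower, 65.7% against 46.8% of all genes measured, and 12 were higher, 34.3% against 53.2%. The median over the members was −0.04, against 0.01 over all genes. Lower by 0.1 or more were 12 members, also 34.3%, against 21.1% of all genes, and 2 members, MYC and POLR1B, were higher by that much, against 26.6% of all genes. At a size of 1.2-fold (0.26 on the log2 scale) 1 member was lower, UTP20, which is 2.86% of the members against 3.58% of all genes, so by the brightest probe set the members were no more often lower at that size than genes in general. With each gene as the median of its probe sets, 2 members were, NOLC1 and UTP20, 5.71% against 3.41% of all genes. No member was at least 1.2-fold higher, against 4.96% of all genes. No member was 1.5-fold lower, against 0.172% of all genes, or 1.5-fold higher, against 0.211%.

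The yardstick for a single gene was the SD over 501 genes of like signal. It measures how much genes vary on this pair of arrays and is no experimental error. By it, 25 of the 35 members differed by less than 1 SD, and only UTP20 by more than 2. The same shares were not counted over all genes, so these counts do not set the members apart from other genes. Quantile normalisation gives both arrays the same distribution of probe values before these are summarised into probe sets. Each difference is therefore relative to the remaining genes, and a change in total RNA per cell does not show. Less RNA per cell and fewer cells of a kind cannot be told apart.

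**Figure D1:**
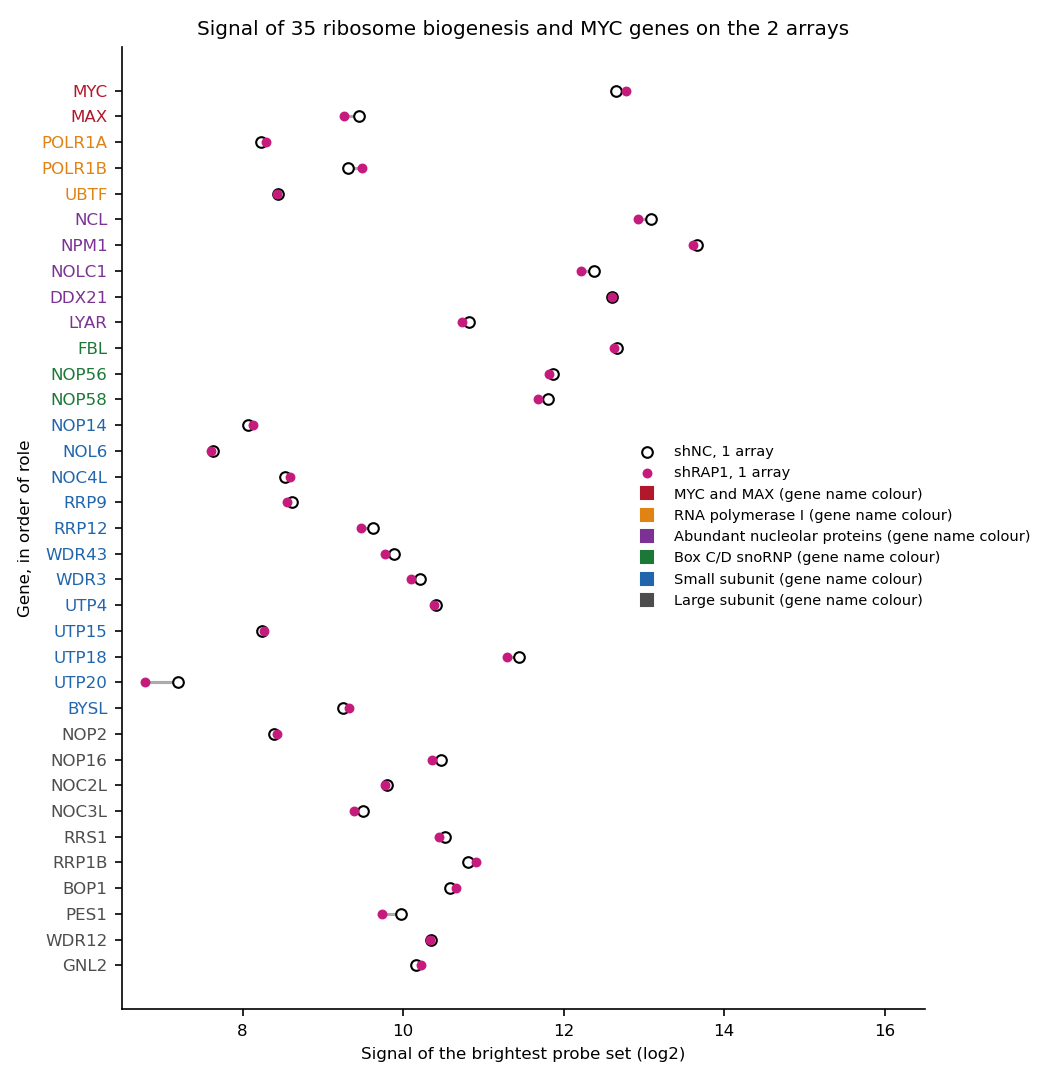
Log2 signal of the brightest probe set of each of 35 genes, with an open circle for the shNC array and a filled point for the shRAP1 array (1 array each, no error bars). Gene names are coloured by role, and signals of different genes are not comparable because each probe set has its own response. The 2 points overlap or nearly touch for most genes, and the widest gap is that of UTP20, at 7.19 in shNC and 6.78 in shRAP1.

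The arrays bear on how such small differences can be read. TERF2IP, the telomere-bound shelterin protein also called RAP1, had a signal of 1311 in shNC and 624 in shRAP1, 47.6% of the control, while RAP1A and RAP1B, the small GTPases of the same name, stood at 88.0% and 93.3%. The polyadenylated spike-ins, whose transcripts are added to the RNA during preparation, had median differences of −0.30 for dap, −0.41 for lys, −0.29 for phe and 0.41 for thr. These sizes exceeded those of 34 of the 35 members, and their part in the members' differences was not tested. The hybridisation controls lay between −0.09 and 0.09. Of 9 epithelial markers 6 were past the floor (CDH1, CDX2, EPCAM, KRT8, KRT18 and KRT19). The signal summed over all 9 was 31029 in shNC and 31800 in shRAP1. Of 14 leukocyte, fibroblast and endothelial markers 13 had a probe set and 4 were past the floor. The signal summed over the 13 was 737 in shNC and 811 in shRAP1. Past the floor of 78.0 were HLA-DRA at 210 and 258, a difference of 0.29 and past 1.2-fold, KDR at 78.8 and 87.6, CD68 at 81.5 and 89.5, and VWF at 129 and 125. The pan-leukocyte marker PTPRC was below the floor, at 11.4 and 9.25. The part of these markers in the members' differences was not tested.

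The members were also examined for the E-box CACGTG, the letters bound by the MYC and MAX dimer and by other factors of that class. MYC is a known activator of this pathway and the members were named together with it. The share of them that holds the motif is therefore no independent check. The windows ran from 250 bases before to 50 bases after each transcription start in RefSeq, build GRCh38.p14, and the motif reads the same on both strands. Windows were found for 29 of the 36 genes, and 16 of these 29, or 55.2%, held the motif. The share was 8.77% of all genes in the same table and 13.1% of those measured past the floor. Factors of the small subunit held it in 8 of 11 genes and those of the large subunit in 5 of 8, whereas the RNA polymerase I genes POLR1A, POLR1B and UBTF held none in this window. A match describes the letters only, and no binding was measured.

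To show where the motif sits, the stretch around it is given for the 8 measured members with the motif whose differences were largest in size. For UTP18, which holds 2, the motif nearer the start is shown. Each is written 5′ to 3′ on the gene's strand with CACGTG in capitals and 12 bases on each side. UTP20 lies at chr12:101280083-101280112 (plus strand), PES1 at chr22:30591880-30591909 (minus), UTP18 at chr17:51260538-51260567 (plus), WDR43 at chr2:28894658-28894687 (plus), NOC3L at chr10:94362903-94362932 (minus), LYAR at chr4:4290068-4290097 (minus), BYSL at chr6:41921515-41921544 (plus) and RRP9 at chr3:51941892-51941921 (minus).
UTP20: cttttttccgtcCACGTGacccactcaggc
PES1: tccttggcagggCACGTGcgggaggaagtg
UTP18: gcagcgaggttcCACGTGagcgcctgcgtt
WDR43: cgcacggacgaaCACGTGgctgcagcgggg
NOC3L: tagggacttcggCACGTGtgtcattccccg
LYAR: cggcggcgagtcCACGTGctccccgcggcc
BYSL: ttcttcagtcccCACGTGcgatccttcccg
RRP9: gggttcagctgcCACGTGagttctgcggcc

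The motif sat close to the transcription start. Of the 17 motifs in the members' windows, 15 began within 40 bases of the start, a distance chosen after the positions were seen, against 27.7% of the 2821 motifs in all windows. Of the 17, 11 lay just after the start, 64.7% against 11.1% of the motifs in all windows, and 6 before it. The exceptions were the motif of LYAR, which began 64 bases before a start, and the more distant one of UTP18, at 89 bases before. The 15 measured members with the motif had a median difference of −0.04 with 10 lower, 66.7% against 47.6% of all genes with it. The 13 measured members without it in their windows had a median of −0.03 with 9 lower, 69.2% against 47.8% of all genes without it. Over all genes the medians were 0.0066 for 1134 genes with the motif and 0.0073 for 7526 without.

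**Figure D2:**
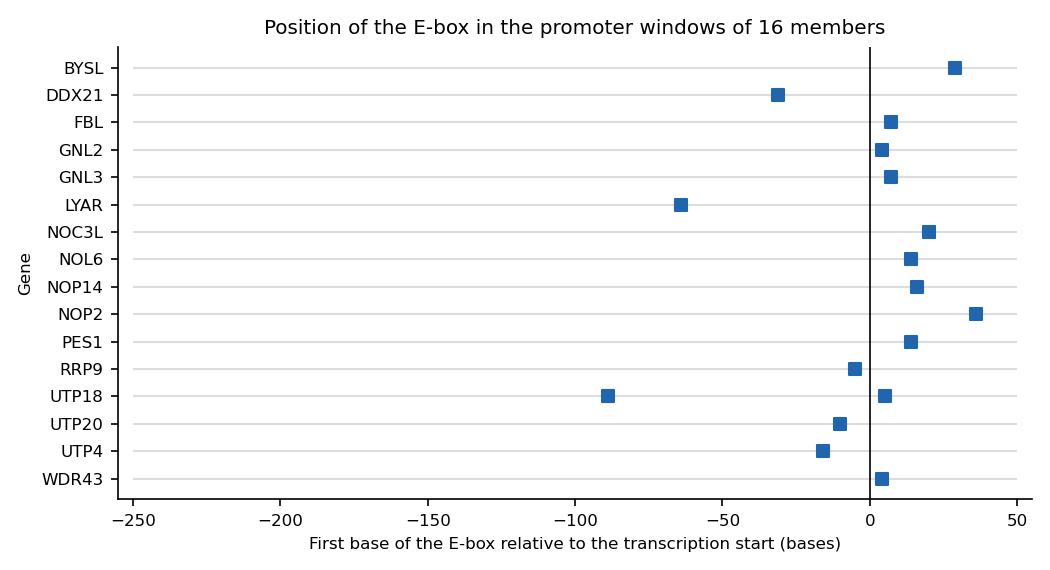
Position of each CACGTG motif (squares) along the promoter windows of 16 genes, in bases from the transcription start (vertical line at 0), with a grey line for the window from 250 bases before to 50 bases after it. Of 17 motifs, 15 lie within 40 bases of the start, and those of LYAR and the distant one of UTP18 lie farther upstream.

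MYC and MAX differed in opposite directions. MYC had a signal of 6467 in shNC and 6992 in shRAP1, a difference of 0.11 and 1.16 times the SD of genes of like signal. It rested on 1 probe set past the floor. MAX, the obligate partner of MYC, had a signal of 698 in shNC and 615 in shRAP1, a difference of −0.18. Of the 7 MAX probe sets past the floor 6 were lower, and their differences ran from −0.23 to 0.06.

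The enzymes and factors that transcribe the ribosomal DNA were not lower as a set. POLR1B, a large catalytic subunit of RNA polymerase I, had a signal of 638 in shNC and 717 in shRAP1, the highest difference of any member at 0.17. Of its 6 probe sets past the floor 5 were higher, between 0.02 and 0.18, and 1 was at −0.06. POLR1A, the largest subunit of the enzyme, was at 301 and 314, a difference of 0.06 on 1 probe set. UBTF, which shapes the ribosomal DNA promoter for transcription, was at 349 and 344, a difference of −0.02. Its other 3 probe sets past the floor were lower by more, down to −0.21.

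The abundant nucleolar proteins were lower in 4 of 5 cases, against 46.8% of all genes, with a median of −0.08. Nucleolin (NCL), which binds nascent precursor RNA, had a signal of 8741 in shNC and 7778 in shRAP1, a difference of −0.17, with its other probe set at −0.26. NOLC1, a chaperone of snoRNPs, was at 5332 and 4761, a difference of −0.16. Its other probe sets lay at −0.33 and −0.29, past 1.2-fold, so the size of the NOLC1 difference depends on the probe set, and the median of the 3 was −0.29. LYAR, a nucleolar zinc finger protein, differed by −0.08 (1805 and 1710) on its brightest probe set and by −0.26 on the other. Nucleophosmin (NPM1), a histone chaperone and nucleolar scaffold, was at 12963 and 12567, a difference of −0.04, with 6 probe sets between −0.08 and 0.01. DDX21, an RNA helicase of rRNA transcription and processing, was level at 6237 and 6243, with 3 probe sets between −0.04 and 0.02.

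The 3 members that are core proteins of the box C/D snoRNPs, which guide 2′-O-methylation of rRNA, were all lower, against 46.8% of all genes. NOP58 had a signal of 3582 in shNC and 3271 in shRAP1, a difference of −0.13, and its other probe set was at −0.26. NOP56 was at 3751 and 3617, a difference of −0.05, and its other 3 probe sets lay between −0.15 and −0.11. Fibrillarin (FBL), the methyltransferase of the particle, was at 6499 and 6329, a difference of −0.04 on 1 probe set. The median of the 3 members was −0.05 by the brightest probe sets and −0.13 by the median of each gene's probe sets. SNU13, a further core protein that is not a member, had a signal of 2776 in shNC and 2868 in shRAP1. Its difference was 0.05, with its other probe set level at −0.0049.

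Among 12 factors of the small subunit 8 were lower, 66.7% against 46.8% of all genes, and 4 were higher. Their median was −0.04. UTP20, a large scaffold protein of the processome that assembles on the 5′ part of the precursor, had a signal of 146 in shNC and 110 in shRAP1, 75.2% of the control. Its difference of −0.41 was the lowest of all members and 2.33 times the SD of genes of like signal. It rested on a single probe set at a modest signal, 146 against a floor of 78.0, and with a floor of 312, the 75th percentile, UTP20 was not measured.

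The subcomplexes of this processome were lower or near level. In the UTP-B subcomplex, UTP18 had a signal of 2778 in shNC and 2515 in shRAP1, a difference of −0.14, with −0.27 on its other probe set. WDR3, of the same subcomplex, was at 1186 and 1100, a difference of −0.11, with 0.03 on its other probe set. In the UTP-A subcomplex, which links processing to transcription of the ribosomal DNA, WDR43 was at 951 and 873, a difference of −0.12, with −0.10 on its other probe set. Its partners UTP4 (1356 and 1334, a difference of −0.02) and UTP15 (302 and 309, a difference of 0.03) were near level. All 3 UTP15 probe sets past the floor were higher, up to 0.09, and UTP15 was the only member of which this was true among the 23 with 2 or more.

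The remaining small subunit factors fell on either side of 0. RRP12, a factor of nuclear export of pre-ribosomes, had a signal of 788 in shNC and 712 in shRAP1, a difference of −0.15, with its other probe sets at −0.26 and −0.25. RRP9, a protein specific to the U3 snoRNP, was at 391 and 375, a difference of −0.06. NOL6 was at 199 and 195, a difference of −0.03, but its 5 probe sets spread from −0.28 to 0.06. BYSL, needed for maturation of the 18S rRNA, was the highest of this role at 609 and 643, a difference of 0.08. NOC4L (368 and 387, a difference of 0.07) and NOP14 (269 and 280, a difference of 0.06), which bind each other, were also higher by their brightest probe sets, although the other probe sets of NOP14 were at −0.07 and −0.02.

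Among 10 measured factors of the large subunit 6 were lower, 60.0% against 46.8% of all genes, and 4 were higher. Their median was −0.02. The 3 proteins of the PeBoW complex, which is needed for processing of the large subunit rRNAs, did not share a direction. PES1 had a signal of 1008 in shNC and 851 in shRAP1, 84.4% of the control, and its difference of −0.24 on 1 probe set was the lowest but UTP20. Its partner BOP1 was at 1531 and 1616, a difference of 0.08, and WDR12 at 1301 and 1287, a difference of −0.02 with 0.04 on the other probe set.

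NOP16, an assembly factor of the large subunit, had a signal of 1422 in shNC and 1319 in shRAP1, a difference of −0.11, with −0.12 on its other probe set. NOC3L was at 722 and 673, a difference of −0.10, and its other probe set was level. NOC2L, whose yeast counterpart pairs with that of NOC3L, was at 889 and 872, a difference of −0.03. RRS1, which helps to bring the 5S particle into the large subunit precursor, was at 1472 and 1394, a difference of −0.08 on 1 probe set. On the higher side stood RRP1B (1801 and 1919, a difference of 0.09), a nucleolar partner of a protein phosphatase. GNL2, a GTPase of large subunit precursors, was at 1148 and 1192, a difference of 0.05, with its other probe set level. NOP2, a methyltransferase of the 28S rRNA, was at 337 and 346, a difference of 0.04, with 3 probe sets between −0.05 and 0.04.

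**Figure D3:**
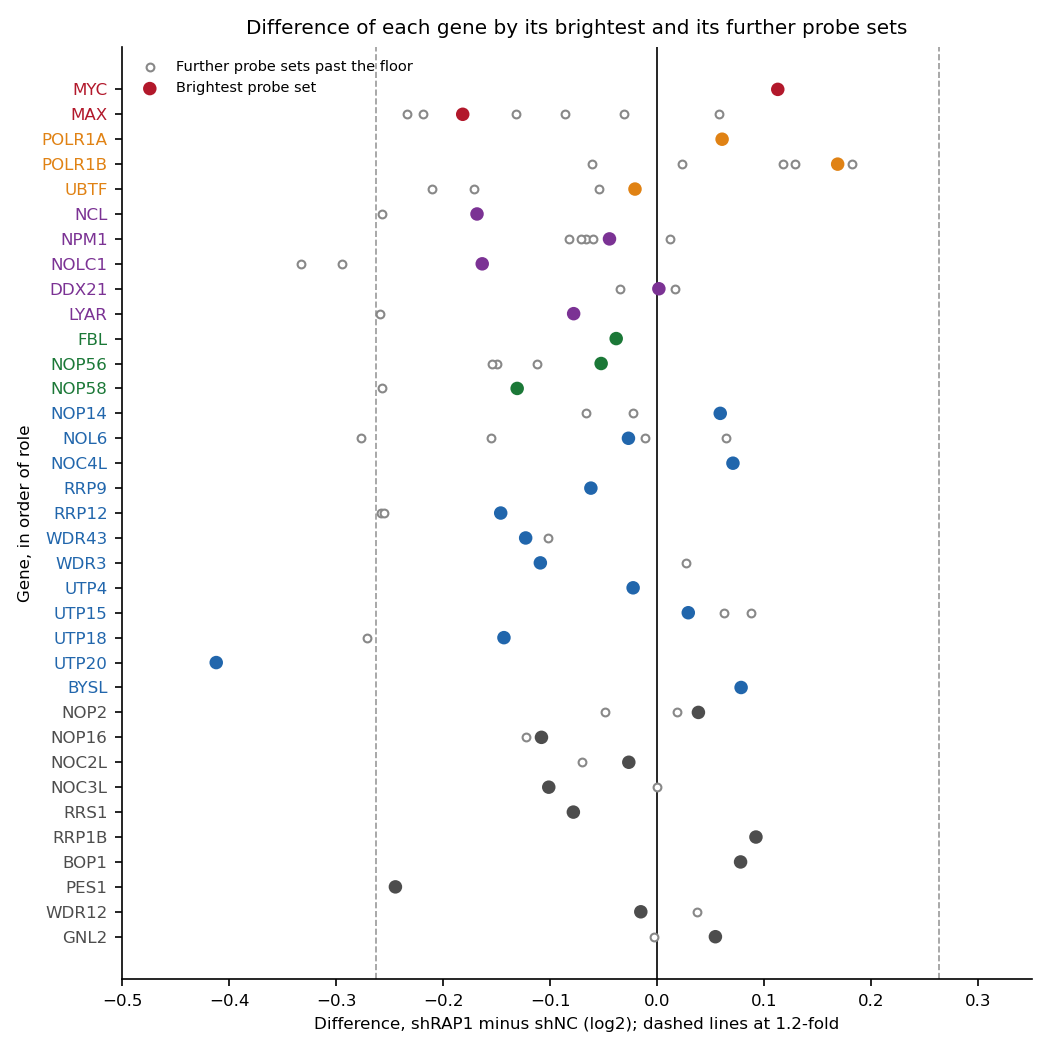
Difference of shRAP1 minus shNC in log2 signal for each of 35 genes, with a filled point for the brightest probe set and open circles for the gene's further probe sets past the floor. Dashed lines mark 1.2-fold in either direction. Only the filled point of UTP20, at −0.41, lies beyond a dashed line, while further probe sets of NOLC1, UTP18 and NOL6 also lie beyond the lower one.

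The further probe sets of the members, which the choice by brightness did not use, were lower about as often as the brightest ones of the same genes. In the 23 members measured by at least 2 probe sets, the brightest was lower in 17, 73.9%, and of their 49 further probe sets 36 were lower, 73.5%. Over all such genes the shares were 48.9% and 53.7%. The further probe sets come from the same 2 RNA samples and arrays, so they repeat the measurement of a transcript and not the experiment. The next brightest probe set alone was lower in 18 of 23 members, 78.3%, with a median of −0.07, against 51.7% and −0.0054 over the 6135 genes measured by at least 2 probe sets. Over all 84 probe sets of the members past the floor, 59 were lower, 70.2% against 50.6% of all single-symbol probe sets past it, and MAX, NPM1 and POLR1B held 7, 6 and 6 of the 84. Every probe set was lower in 12 of the 23 members (LYAR, NCL, NOC2L, NOC3L, NOLC1, NOP16, NOP56, NOP58, RRP12, UBTF, UTP18 and WDR43), 52.2% against 31.0% of all such genes. NOC3L counts here although its further probe set was level, at −6.3e-05. Every probe set was higher in 1 member, 4.35% against 29.2%. The median SD between probe sets of a member was 0.06, larger than the size of the members' median difference.

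The rest of the pathway was taken from lists chosen by function, with earlier results of these data known, so their shares are no independent check. Of 43 measured other small subunit factors 29 were lower, 67.4% against 46.8% of all genes, with a median of −0.05. At least 1.2-fold lower were 2, 4.65% against 3.58% of all genes: DDX52, an RNA helicase (423 in shNC and 331 in shRAP1, a difference of −0.35), and RRP36 (736 and 591, −0.32). NAT10, the acetyltransferase of 18S rRNA, differed by −0.24 with 3 probe sets all lower, and KRR1, a processome protein, by −0.22 with 5 probe sets all lower. Of 47 other large subunit factors 26 were lower, 55.3%, with a median of −0.02. RRP15 led them with a signal of 227 in shNC and 162 in shRAP1, a difference of −0.49, with its other probe set at −0.30. NOL9, a polynucleotide kinase of rRNA processing, and NIP7 were higher by 0.22 and 0.20, and SBDS, which helps to release the anti-association factor from large subunits, was at −0.19.

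Other genes of RNA polymerase I and of the snoRNPs were evenly divided. Of 14 polymerase I genes 7 were lower, with a median of −0.01. TBP, which serves RNA polymerases I, II and III, differed by −0.31 on its brightest probe set and by −0.13 on the other. The subunit genes POLR1D, POLR1H and POLR1C were at 0.18, 0.16 and 0.13 by their brightest probe sets, but 2 of the 3 POLR1D probe sets past the floor were lower, down to −0.24. The subunit genes POLR1E and POLR1G were at −0.10 and −0.09, each with 3 probe sets all lower, and POLR1F was at 0.02. Of 12 other snoRNP genes 6 were lower, with a median of 0.0024. The 4 of largest size were all lower: DKC1 at −0.23, GAR1 at −0.20 and NOP10 at −0.15, which are core proteins of the box H/ACA particles, and the assembly factor ZNHIT3 at −0.14. NHP2, a further core protein of those particles, was at 0.04, with none of its 3 probe sets lower. In these 4 lists together 68 of 116 genes were lower, 58.6% against 46.8% of all genes, with a median of −0.02. At least 1.2-fold lower were 4 of them, 3.45% against 3.58% of all genes, and at least 1.2-fold higher 0, against 4.96%.

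The genes around MYC were split between its network partners and its growth targets. Of 14 measured network genes 11 were higher, 78.6% against 53.2% of all genes, with a median of 0.11, and none reached 1.2-fold. MXI1, which competes with MYC for MAX, had a signal of 2459 in shNC and 2877 in shRAP1, a difference of 0.23, although 1 of its probe sets was at −0.17. MLXIP, a glucose-responsive relative, was at 0.18, and the MAX-binding repressors MNT and MXD1 were at 0.15 and 0.14. Of 20 measured MYC targets of growth and metabolism 14 were lower, 70.0% against 46.8% of all genes, with a median of −0.04. ODC1, the rate-limiting enzyme of polyamine synthesis, was at 4263 and 3571, a difference of −0.26 and 2.38 times the SD of like genes. PAICS, of purine synthesis, was at −0.24 on its brightest and −0.22 on its other probe set, the mitochondrial transcription factor TFAM at −0.23 with 3 probe sets all lower, and the cyclin-dependent kinase CDK4 at −0.20 with 4 probe sets all lower. None of these genes passed 1.2-fold by the brightest probe set. In the promoter windows the E-box was held by 13 of 21 of these target genes (61.9%), a list itself chosen as MYC targets. It was held by 14 of 40 other small subunit factors (35.0%) and 11 of 45 other large subunit factors (24.4%). Of other snoRNP genes 2 of 10 held it (20.0%), and of other polymerase I genes 1 of 12 (8.33%). The share of all genes measured past the floor was 13.1%.

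**Figure D4:**
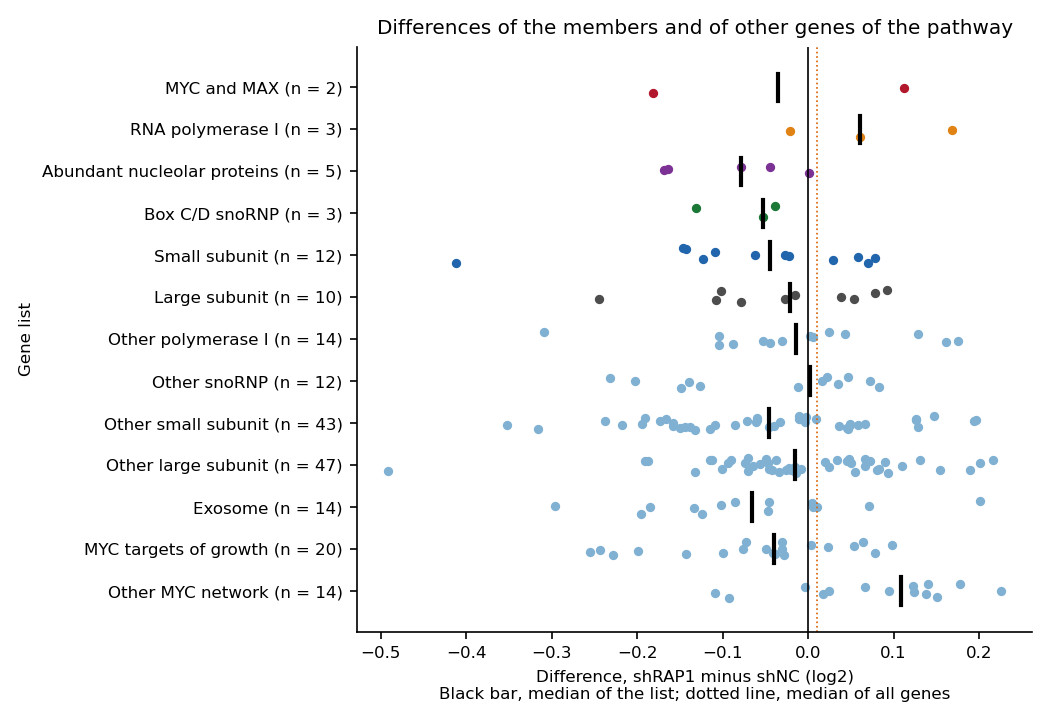
Difference of shRAP1 minus shNC in log2 signal for the members by role (coloured) and for 7 further lists of the pathway (light blue), 1 point per gene by its brightest probe set, with a black bar at the median of each list and a dotted line at the median of all genes, 0.01. Medians lie between −0.08 for the abundant nucleolar proteins and 0.11 for the other MYC network genes, and points of every list with more than 3 genes spread to 0 or beyond on both sides of it.

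Genes of like signal had small shifts of their own. Genes nearest in signal to NCL, MYC, NPM1, FBL and DDX21 had a median difference of −0.02, and those nearest to NOP14 one of 0.03. After a lowess trend on mean signal was removed, 23 of 35 members were lower, against 50.4% of all genes, and the median of the members was −0.03.

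**Figure D5:**
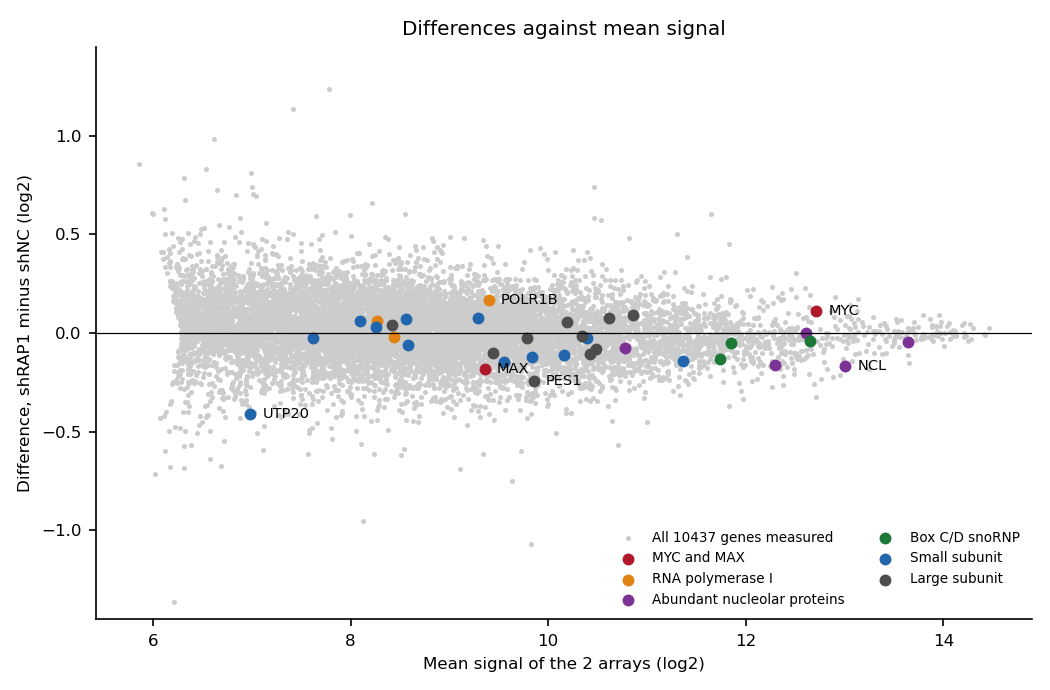
Difference of shRAP1 minus shNC against mean log2 signal for all 10437 genes measured (grey) and the 35 members (coloured by role). The members lie inside the cloud of all genes, UTP20 near its lower edge at −0.41, and the cloud narrows towards high signal. There MYC at 0.11 and NCL at −0.17 differ by 1.16 and 1.73 times the SD of genes of like signal.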

How the data were processed

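Total RNA of 2 HCT116 cultures was converted to biotin-labelled cRNA with an Affymetrix 3′ in vitro transcription kit and hybridised to 1 array per group, per the labels' protocols. Per the submitters' processing notes the authors used RMA, which corrects background, normalises quantiles and summarises each probe set. Its version was not given in the sources used here. The deposited values are intensities of probe sets on a linear scale. The linear scale was read from the values, whose maximum over the 2 arrays together was 25726, and log2 was taken with no pseudocount. The 49293 non-control probe sets had a median of 77.0 in shNC and 78.9 in shRAP1.

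Of those probe sets, 44988 carried 1 symbol in the platform annotation, 1832 several and 2473 none, and only the first kind was used. A probe set passed the floor where either array reached 78.0, the median of all values. Every member is named, with up to 4 genes of largest difference from each further list. Named besides these are SNU13, NHP2, POLR1E, POLR1F and POLR1G. The members and lists were chosen with earlier results of these data known. With 1 array per group no test was made. Alternatives changed the summary of probe sets, the probe sets admitted, the centring, the floor and the size counted. Promoter windows are RefSeq's. BOP1, MYC, NOLC1, NOP58, RRP12, RRP1B and RRS1 had no entry. Values were computed with Python 3.11.15, numpy 2.4.6, pandas 2.3.3 and statsmodels 0.14.6 (lowess span 0.3), plots were drawn with matplotlib 3.10.9, and the gene-level counting was checked on simulated data. The number of arrays limits the precision.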

Additional observations from a re-analysis of the deposited data

How the results depend on the processing

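With 1 array per group, no alternative can stand in for a replicate. No paired analysis was possible because each group holds 1 array. The count of members lower (23 of 35, 65.7% against 46.8% of all genes) was 24 with median-centred differences (68.6%, where centring makes the share of all genes even), 23 with lowess-centred ones (65.7% against 50.4%), 21 of 31 with the floor at the 75th percentile (67.7% against 52.2%) and 20 of 32 (62.5% against 47.7%) after _x_at and _s_at probe sets, which can match several transcripts, were left out. The median of the members ran from −0.05 to −0.03 over the alternatives. The count at least 1.2-fold lower (1) was 2 when each gene was the median of its probe sets (5.71% against 3.41% of all genes, which turns the order of the shares), 0 with the floor at the 75th percentile, where UTP20 is not measured, and 0 at a size of 1.5-fold. The count at least 1.2-fold higher was 0 in each. TERF2IP stayed at −1.07 or −1.08, and its only probe set is of the _s_at kind. The sign changed in 6 of 203 single values. It changed for NOP14 and WDR12 with the median of probe sets, and for NOP2, NPM1 and WDR3 without _x_at and _s_at probe sets. For DDX21, at 0.0014, it changed with median-centred differences. Why probe sets of 1 gene differed was not tested. The median of MYC and MAX, of other polymerase I genes and of other snoRNP genes changed sign under some alternatives.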

Other observations

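The exosome, which trims rRNA precursors from their 3′ ends, and the free 5S particle that binds MDM2 were not described above, though the exosome genes are among the plotted lists. Of 14 measured exosome genes and cofactors 9 were lower, 64.3% against 46.8% of all genes, with a median of −0.07. C1D, a cofactor of the nuclear exosome, had a signal of 678 in shNC and 552 in shRAP1, a difference of −0.30, and its 4 probe sets were all lower, down to −0.55. The core subunit genes EXOSC8 and EXOSC3 were at −0.20 and −0.18, and EXOSC6 was higher by 0.20. Of 13 exosome genes with a promoter window 2 held the E-box, 15.4% against 13.1% of genes measured past the floor.

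Free 5S particles made of 5S rRNA, RPL5 and RPL11 bind MDM2 when ribosome assembly is disturbed, and p53 then accumulates. In the list of 6 measured genes of this link 2 were lower, 33.3% against 46.8% of all genes, with a median of 0.01. MDM2, a p53 target and the ligase of p53, was at 351 in shNC and 301 in shRAP1, a difference of −0.22 on its brightest probe set, but only 2 of its 6 probe sets past the floor were lower and the highest was at 0.15. The p53 target CDKN1A was at 4488 and 4063, a difference of −0.14 with its other probe set at −0.23. MDM4 was at 0.07 and HEATR3, an import factor of RPL5, at 0.04.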
